A study of Mus musculus with 2 samples.

Results

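The mitochondrial ribosomal protein genes are the nuclear genes whose symbols are Mrpl or Mrps followed by a number. That symbol pattern matched 77 rows and 77 symbols among the 47644 genes listed in a mouse study of oxygen-induced retinopathy (OIR), 48 of them for the large subunit (Mrpl) and 29 for the small subunit (Mrps). Total RNA of C57BL/6 eyeballs was sequenced from 1 OIR sample and 1 control sample. The OIR pups entered high oxygen on day 7, stayed in it for 5 days, went back to ordinary air and had their eyes taken on day 17. The labels give the control only as control, without a collection day, and do not say how many eyes or animals either sample pooled. A whole eyeball holds lens, cornea, retina and blood, so fewer cells of a type and less RNA per cell cannot be told apart here.

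The mitochondrial ribosome makes only the proteins encoded by mitochondrial DNA, which in mammals are core subunits of the respiratory chain and of ATP synthase. Its RNAs come from mitochondrial DNA, while its proteins are encoded in the nucleus, made in the cytosol and imported. The small subunit binds the messenger and reads its codons, and the large subunit joins the amino acids. Photoreceptors are rich in mitochondria.

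Most mitochondrial ribosomal protein genes stood slightly lower in the OIR library. Each gene's difference is log2(FPKM + 1) of OIR minus that of the control, where FPKM counts fragments per kilobase of transcript scaled to library size. The 76 members that reached 1 FPKM in at least 1 of the libraries had a median difference of -0.16, while the median of all 15883 genes that did so was 0.11. Below 0 lay 61 of the 76, or 80.3%, against 35.1% of all genes. When FPKM was rescaled to TPM, 49 members and 25.8% of all genes lay below 0, and with the authors' scaling factors 72 members and 51.2% of all genes did. Lower by at least 0.32 on the log2 scale were 13 members, or 17.1%, against 9.00% of all genes. Higher by at least that much were 2 members, or 2.63%, against 24.3% of all genes. No member differed 2-fold, where 0.718% of all genes were at least 2-fold lower and 3.07% at least 2-fold higher. The count of 13 was 3 under TPM, where 6.56% of all genes were lower by as much, and 31 with the authors' factors, where 15.9% were. With 1 library per group no difference has a replicate check.

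Levels were moderate. Members ranged between 3.72 and 94.8 FPKM for OIR, with a median of 18.8, and between 3.52 and 130 FPKM for the control, with a median of 20.4. All members together took 0.161% of assigned reads for OIR (95% exact interval 0.159 to 0.163) and 0.182% for the control (0.180 to 0.184). The ratio of these shares was 0.886 (0.872 to 0.900); every interval given after a ratio is an exact 95% interval and covers counting error only. In the authors' deposited table the log2 fold change lay below 0 for 72 of 76 members, with a median of -0.31, while 51.4% of the 15718 tested genes with a value there lay below 0, with a median of -0.01. The authors' deposited table gave an adjusted p under 0.05 to 0 of the members and to 2.34% of those genes.

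**Figure D1:**
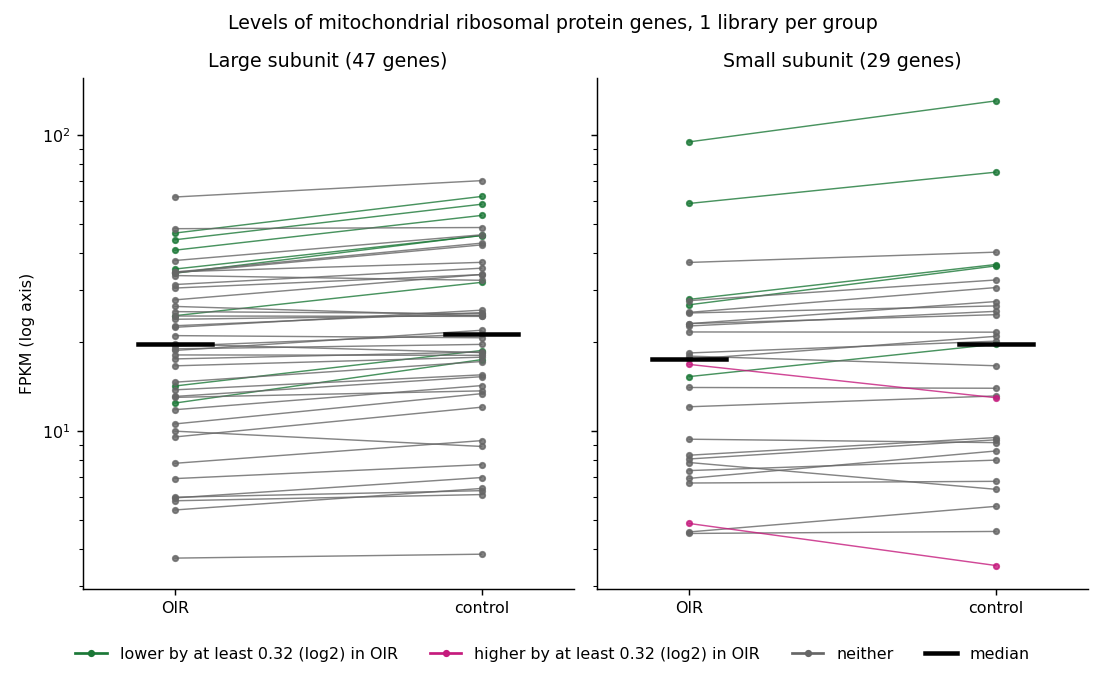
FPKM on a log axis of each measured mitochondrial ribosomal protein gene in the OIR library (left in each panel) and the control library (right), with a line per gene and black bars at the medians. Green lines mark the 13 genes lower by at least 0.32 on the log2 scale and magenta lines the 2 that were higher by as much, Mrps9 and Mrps30; panels follow the gene symbol.

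Both subunits had medians below 0. Large-subunit genes had a median level of 19.7 FPKM for OIR and 21.3 FPKM for the control, and a median difference of -0.18 across 47 genes, with 39 below 0. Small-subunit genes had a median level of 17.5 FPKM for OIR and 19.7 FPKM for the control, and a median difference of -0.13 across 29 genes, with 22 below 0. The large-subunit median was lower than the small-subunit median by 0.05, a difference that has no replicate check. The summed read-share ratio was 0.881 (0.864 to 0.899) for the large subunit and 0.894 (0.870 to 0.918) for the small one. Large-subunit reads were 1.83 times the small-subunit reads for OIR (21211 and 11612) and 1.85 times for the control (18592 and 10032). This quotient needs no scaling between libraries, and its OIR value over its control value was 0.986 (0.953 to 1.02), an interval that includes 1.

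The symbol does not always give the place in the ribosome. In the mammalian structure the products of Mrps30 and Mrps18a sit in the large subunit, and Mrps36 is now known as a component of the 2-oxoglutarate dehydrogenase complex. With these 3 genes treated so, the subunit medians differed by -0.04. Mrps36 itself stood at 37.1 FPKM in the OIR eyes against 40.2 FPKM in the control eyes, a read-share ratio of 0.923 (0.801 to 1.06). Proteins with a bacterial counterpart had a median difference of -0.15 over 48 genes, and those known only from mitochondrial ribosomes -0.19 over 27 genes.

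The large-subunit members with the lowest differences were Mrpl46, Mrpl23, Mrpl41 and Mrpl42. Mrpl46, a protein of the central protuberance (ENSMUSG00000030612, chromosome 7, 78775236 to 78783531), stood at 12.4 FPKM in the OIR eyes against 17.4 FPKM in the control eyes, and its read-share ratio was 0.713 (0.596 to 0.853). Exons on the other strand, where Mrps11 lies, cover 12.2% of its exon bases. Gene coordinates here are those of the gene table (mm10). Mrpl23, a protein at the rim of the tunnel through which the new chain leaves (chromosome 7, 142532799 to 142540747), stood at 34.1 FPKM in the OIR eyes against 45.8 FPKM in the control eyes, a read-share ratio of 0.745 (0.653 to 0.849). Mrpl41 and Mrpl42 encode proteins that bacterial ribosomes lack. Mrpl41 (chromosome 2, 24974117 to 24975098) stood at 46.7 FPKM in the OIR eyes against 62.0 FPKM in the control eyes, a read-share ratio of 0.752 (0.668 to 0.847). Mrpl42 (chromosome 10, 95480806 to 95501927) stood at 44.3 FPKM in the OIR eyes against 58.4 FPKM in the control eyes, a read-share ratio of 0.759 (0.677 to 0.850). All 4 intervals lie below 1, but they take no account of the choice of these genes as the lowest. Mrpl28, the most abundant large-subunit member, stood at 61.8 FPKM in the OIR eyes against 70.1 FPKM in the control eyes, a read-share ratio of 0.880 (0.796 to 0.974).

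The small-subunit members with the lowest differences were Mrps21, Mrps12, Mrps24 and Mrps33. Mrps21, the most abundant member of all (ENSMUSG00000054312, chromosome 3, 95862634 to 95871519), stood at 94.8 FPKM in the OIR eyes against 130 FPKM in the control eyes, a read-share ratio of 0.727 (0.658 to 0.803). Mrps12, whose bacterial counterpart acts in the accuracy of decoding (chromosome 7, 28739641 to 28741820), stood at 26.7 FPKM in the OIR eyes against 36.1 FPKM in the control eyes, a read-share ratio of 0.739 (0.634 to 0.862). Mrps24 (chromosome 11, 5703983 to 5715680), the counterpart of a bacterial protein at the messenger's entry channel, stood at 27.9 FPKM in the OIR eyes against 36.5 FPKM in the control eyes, a read-share ratio of 0.762 (0.660 to 0.881); Urgcp shares 15.4% of its exon bases. Mrps33 (chromosome 6, 39801804 to 39810988), a protein of the small-subunit head, stood at 58.7 FPKM in the OIR eyes against 74.9 FPKM in the control eyes, a read-share ratio of 0.784 (0.710 to 0.865). All 4 intervals lie below 1, again without account of the choice of these genes as the lowest.

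**Figure D2:**
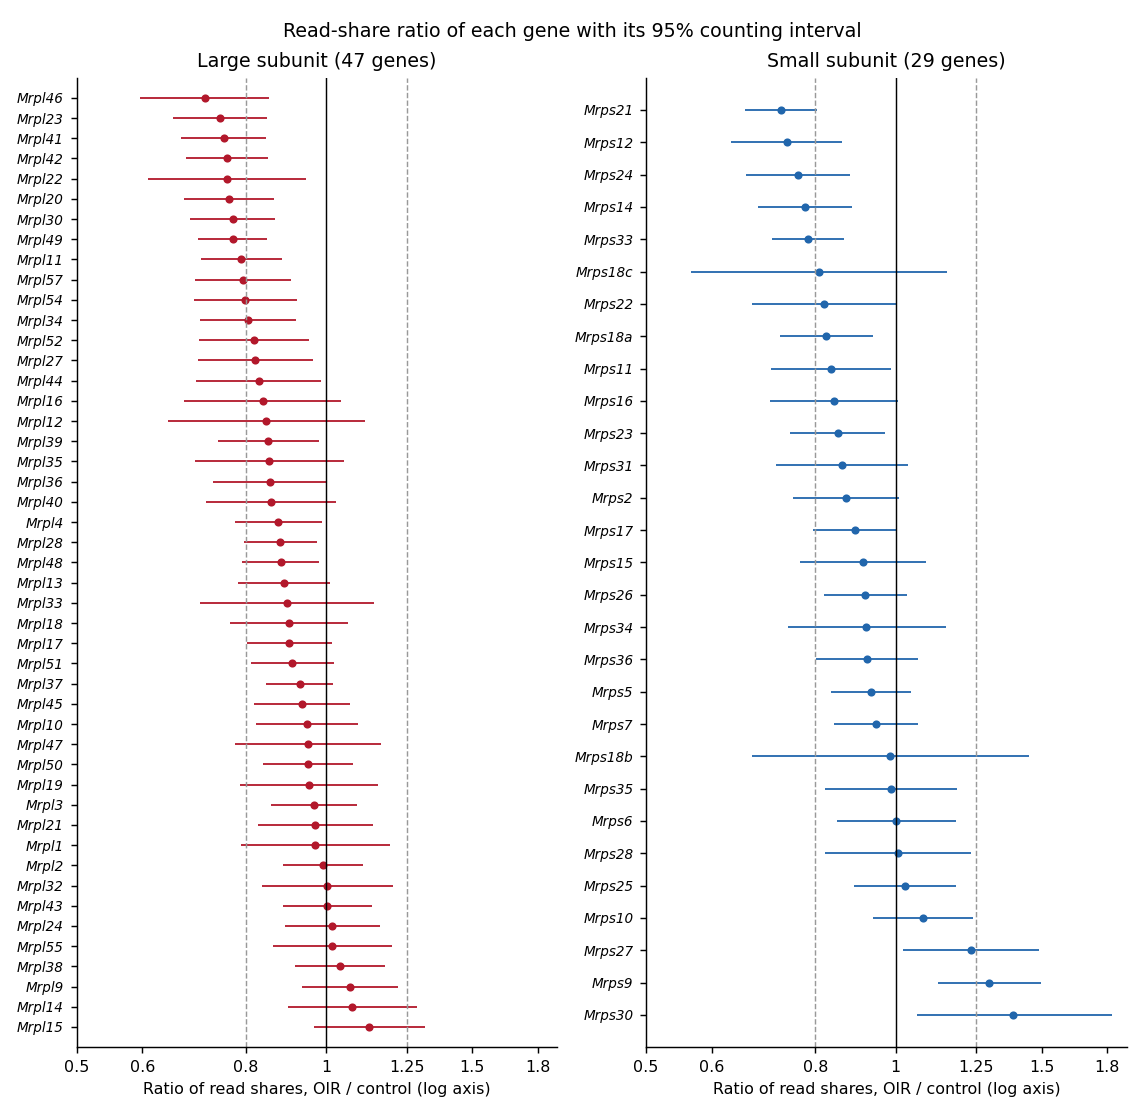
Ratio of read shares, OIR over control, on a log axis for each measured member, large subunit left and small subunit right, with exact 95% counting intervals as bars. The solid line marks equal shares and the dashed lines 0.32 on the log2 scale either side; Mrpl46 and Mrps21 head the panels at 0.713 and 0.727, and the intervals of Mrps27, Mrps9 and Mrps30 lie above 1.

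The sequence before a RefSeq start site is shown for the lowest pair of each subunit. It lets these genes be set beside motifs of factors known to act on nuclear genes for mitochondrial proteins. The motifs, searched on both strands, were that of NRF1 (GCGCA, any base, then GCGC), that of the ETS factor GABP (CCGGAAGT), that of YY1 (AAGATGGC) and that of SP1, a general factor of GC-rich promoters (GGGCGG). None of these strings contains another. RefSeq windows were found for 68 of the 77 members. Each line gives 250 bases, 5′ to 3′, on GRCm38.p6, and capitals mark the matches.
Mrpl46 (chr7:78783090-78783339, minus strand): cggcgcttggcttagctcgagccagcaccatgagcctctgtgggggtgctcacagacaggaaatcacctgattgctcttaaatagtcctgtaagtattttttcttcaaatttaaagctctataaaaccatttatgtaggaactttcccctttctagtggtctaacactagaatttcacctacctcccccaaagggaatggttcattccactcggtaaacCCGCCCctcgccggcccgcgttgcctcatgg
Mrpl23 (chr7:142532782-142533031, plus strand): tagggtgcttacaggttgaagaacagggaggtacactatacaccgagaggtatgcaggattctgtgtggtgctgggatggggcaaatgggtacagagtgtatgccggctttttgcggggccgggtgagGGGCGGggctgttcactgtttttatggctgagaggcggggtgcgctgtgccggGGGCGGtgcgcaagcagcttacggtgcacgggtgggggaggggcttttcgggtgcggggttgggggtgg
Mrps21 (chr3:95871515-95871764, minus strand): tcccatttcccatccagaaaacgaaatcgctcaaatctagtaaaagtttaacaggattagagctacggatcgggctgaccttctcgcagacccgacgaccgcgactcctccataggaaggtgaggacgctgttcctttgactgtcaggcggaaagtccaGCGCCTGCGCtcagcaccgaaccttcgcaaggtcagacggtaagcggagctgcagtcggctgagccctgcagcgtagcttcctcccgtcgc
Mrps12 (chr7:28741822-28742071, minus strand): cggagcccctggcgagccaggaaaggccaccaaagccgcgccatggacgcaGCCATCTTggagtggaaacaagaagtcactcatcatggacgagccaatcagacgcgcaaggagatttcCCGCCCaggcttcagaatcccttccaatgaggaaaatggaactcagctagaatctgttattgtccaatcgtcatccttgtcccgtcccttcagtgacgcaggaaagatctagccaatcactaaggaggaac
Only windows with a match to a searched motif could be shown, so a match in each follows from that choice. The Mrpl46 window holds an SP1 match, the Mrpl23 window 2 SP1 matches, the Mrps21 window an NRF1 match and the Mrps12 window a YY1 and an SP1 match. The RefSeq start lies 442 bases from the start in the gene table for Mrpl46, 233 for Mrpl23, 5 for Mrps21 and 1 for Mrps12. For Mrpl46 and Mrpl23 the RefSeq start lies inside the gene as listed. The Mrpl46 window therefore falls wholly, and the Mrpl23 window mostly, within the listed gene and not before it. A gene was counted if any of its windows held a match. NRF1 matches stood in 14.7% of the 68 members, against 4.23% of all 27025 genes with windows, whether expressed here or not. ETS matches stood in 14.7% against 3.23%. YY1 matches stood in 5.88% against 1.83%, and SP1 matches in 48.5% against 35.4%. Members with an NRF1 match had a median difference of -0.21 and those without -0.18; for ETS the medians were -0.14 with a match and -0.19 without. A match describes the sequence and does not show binding.

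The members with the highest differences were Mrps30, Mrps9 and Mrps27. Mrps30, whose product sits in the large subunit (ENSMUSG00000021731, chromosome 13, 118380110 to 118387252), had 158 reads for OIR and 88 for the control, that is 4.88 FPKM in the OIR eyes against 3.52 FPKM in the control eyes, a read-share ratio of 1.39 (1.06 to 1.82); 9.35% of its exon bases are shared with B430218F22Rik. Mrps9, a head protein whose bacterial counterpart touches the transfer RNA (chromosome 1, 42851233 to 42905683), stood at 16.8 FPKM in the OIR eyes against 13.0 FPKM in the control eyes, a read-share ratio of 1.296 (1.124 to 1.496). Mrps27, a protein with pentatricopeptide repeats (chromosome 13, 99344786 to 99415561), stood at 7.83 FPKM in the OIR eyes against 6.36 FPKM in the control eyes, a read-share ratio of 1.23 (1.02 to 1.49); 24.2% of its exon bases are shared with 6430562O15Rik on the other strand. For these 3 members the counting interval lay above 1, for 28 below 1, and for 45 it included 1, where 36.7% of all genes had an interval above 1 and 14.7% one below. Mrps10, another head protein, had a ratio of 1.08 (0.939 to 1.24). The highest large-subunit members were Mrpl15 at 1.13 (0.967 to 1.31), Mrpl14 at 1.07 (0.900 to 1.29), Mrpl9 at 1.07 (0.934 to 1.22) and Mrpl38 at 1.04 (0.916 to 1.18). In the authors' deposited table, whose scaling differs, Mrps10, Mrpl14, Mrpl9 and Mrpl38 had fold changes below 0, and Mrpl15, Mrps27, Mrps9 and Mrps30 above 0.

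Members varied around their common ratio. The counting interval held the common value of 0.886 for 52 of the 76, lay below it for 12 and above it for 12. In the large subunit 33 of 47 intervals held that subunit's own ratio of 0.881, and in the small subunit 20 of 29 held 0.894.

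Members were also grouped by place in the ribosome, after their values had been seen. The 3 stalk genes, whose proteins recruit translation factors, had a summed ratio of 0.848 (0.780 to 0.922); among them Mrpl11 had 0.790 (0.705 to 0.885), Mrpl10 0.948 (0.822 to 1.09) and Mrpl12 0.846 (0.644 to 1.11). The 8 genes of the tunnel rim had 0.877 (0.834 to 0.924), the 7 of the central protuberance 0.898 (0.850 to 0.948), the 8 of the small-subunit head 0.906 (0.864 to 0.949) and the 3 of its platform 0.905 (0.811 to 1.01). These intervals overlap. Mrpl45, which helps to dock the ribosome at the inner membrane, stood at 16.6 FPKM in the OIR eyes against 17.8 FPKM in the control eyes, a read-share ratio of 0.935 (0.818 to 1.07).

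Mrps18a, Mrps18b and Mrps18c are paralogs. Mrps18a (chromosome 17, 46110986 to 46128910) stood at 25.2 FPKM in the OIR eyes against 30.5 FPKM in the control eyes, a read-share ratio of 0.824 (0.725 to 0.938). Mrps18b (chromosome 17, 35910379 to 35916389) stood at 4.51 FPKM in the OIR eyes against 4.58 FPKM in the control eyes, a read-share ratio of 0.984 (0.672 to 1.45) from 65 reads for OIR and 51 for the control. Mrps18c (chromosome 5, 100798627 to 100804471) stood at 6.92 FPKM in the OIR eyes against 8.57 FPKM in the control eyes, a read-share ratio of 0.808 (0.567 to 1.15) from 68 reads for OIR and 65 for the control; exons of other genes cover 23.2% of its exon bases. The 3 intervals overlap, and a difference between the paralogs was not tested.

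Mrpl53 (chromosome 6, 83109040 to 83109939) was listed with 0 reads in both libraries. In GENCODE M21, 87.97% of its exon bases also lie in exons of another listed gene on the same strand, and its span overlaps Ccdc142 and Ccdc142os. Levels are uncertain wherever reads on shared bases could not be assigned. Exons of 30 of the 76 measured members overlapped those of another gene on either strand, up to 77.8% of the exon bases of Mrps34. The 46 members without such overlap had a median difference of -0.20, and the 30 with overlap -0.09.

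Many members stand back to back with another gene. For 22 measured members a gene on the opposite strand began within 1000 bases upstream or within 200 bases of overlap, at a median distance of 100.5 bases. These members had a median difference of -0.10 and their neighbours 0.11. Below 0 lay 18 of the 22 members and 5 of the 22 neighbours, where 35.1% of all genes did, and the neighbours' median lay close to that of all tested genes. The neighbour stood lower than the member in 2 pairs. The neighbour of Mrps12 is Sars2, the mitochondrial seryl-tRNA synthetase, which stood at 6.83 FPKM in the OIR eyes against 7.08 FPKM in the control eyes, a read-share ratio of 0.965 (0.803 to 1.16). Mrpl49 and its neighbour Fau, which encodes a ubiquitin-like protein fused to a cytosolic ribosomal protein, had differences of -0.36 and -0.27. Mrpl43 and Peo1, the helicase of mitochondrial DNA, had 0.00 and 0.06. These 3 pairs were chosen after their values were seen.

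**Figure D3:**
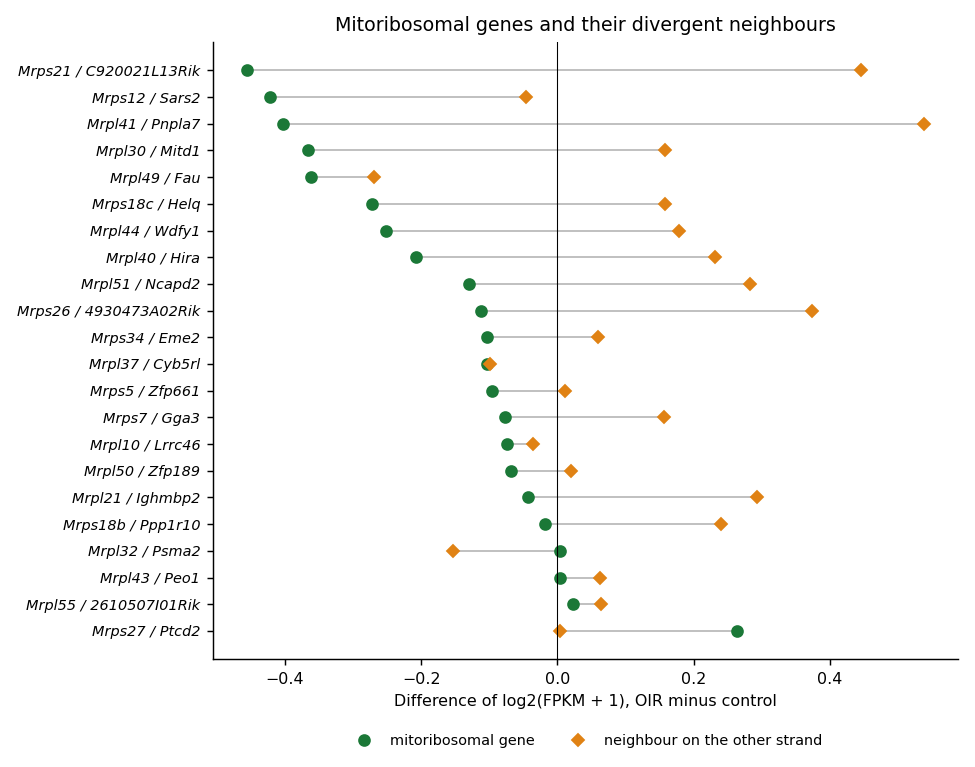
Difference of log2(FPKM + 1), OIR minus control, for 22 mitochondrial ribosomal protein genes (circles) and the gene that starts on the opposite strand beside each (diamonds). Circles lie left of 0 in 18 pairs and diamonds in 5; the neighbours' median of 0.11 lies close to that of all tested genes.

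Shorter and more abundant members stood lower. Ordered by transcript length, as reads and FPKM imply it, the shortest 25 members had a median difference of -0.28, the middle 25 -0.16 and the longest 26 -0.10. Ordered by FPKM, the highest 26 had a median of -0.28, the middle 25 -0.10 and the lowest 25 -0.11. The median length was 655.5 bases in the highest 26 by FPKM and 1797 in the lowest 25, so length and FPKM were not separated. Spearman's rho of the difference with length was 0.375 and with mean FPKM -0.370 over the 76 members, which share the 2 libraries. All tested genes had a length trend too, with a median of -0.09 between 443 and 709 bases, where 19 members had a median of -0.31, and of 0.23 between 5087 and 20169 bases. Centred on the median of genes of like length in 20 bins, the members had a median of -0.20 and 62 of 76 lay below 0. With only protein-coding genes in the bins, an alternative chosen after seeing the data, the median was -0.18 and 58 lay below 0. Among genes of 710 to 871 bases the 11 members had a median of -0.01 and all genes -0.04.

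**Figure D4:**
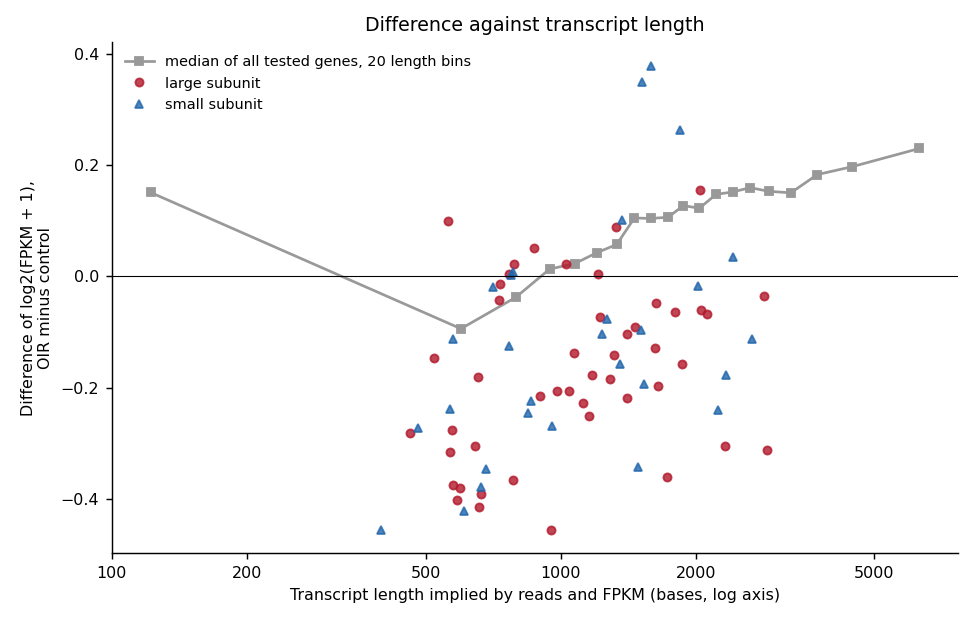
Difference of log2(FPKM + 1), OIR minus control, against transcript length in bases on a log axis, for large-subunit (circles) and small-subunit (triangles) genes, with the median of all tested genes in 20 length bins (squares). Of the 76 members 62 lie under the median of all tested genes of like length.

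Mitoribosomal proteins with other symbols lay on both sides of 0. Of 6 measured, 2 lay below 0, or 33.3%, against 35.1% of all genes, and the median difference was 0.03. Dap3, a GTP-binding protein of the small subunit, stood at 35.8 FPKM in the OIR eyes against 33.9 FPKM in the control eyes, a read-share ratio of 1.06 (0.948 to 1.18). Ptcd3, with pentatricopeptide repeats, had 1.04 (0.937 to 1.16), and Ict1, a peptidyl-tRNA hydrolase built into the large subunit, 1.01 (0.882 to 1.16). Gadd45gip1 had 1.16 (0.881 to 1.53), Chchd1 0.877 (0.754 to 1.02) and Aurkaip1 0.879 (0.793 to 0.976). With these 6 added to the members, the median was -0.15.

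Genes that serve the mitochondrial ribosome had medians between that of the members and that of all genes. Centred on genes of like length, the medians were -0.003 for translation factors, -0.06 for assembly genes and -0.003 for mitochondrial aminoacyl-tRNA synthetases. The 13 translation factor genes had a median difference of 0.09, 0 of them lower and 2 (15.4%) higher by at least 0.32. Of all genes 9.00% were lower and 24.3% higher by as much. The release factor gene Mtrf1l had a read-share ratio of 1.41 (1.09 to 1.85) and Gfm2, which acts in ribosome recycling, 1.35 (1.215 to 1.501). At the low end Mtrf1 had 0.749 (0.521 to 1.08) and Oxa1l, the inner-membrane insertase, 0.845 (0.773 to 0.925). The 23 assembly and rRNA modification genes had a median of 0.00, with 1 gene (4.35%) in each direction past 0.32, below both shares of all genes. Nsun4, a methyltransferase of the small-subunit rRNA, stood at 20.9 FPKM in the OIR eyes against 12.8 FPKM in the control eyes, a read-share ratio of 1.63 (1.43 to 1.87), and Trub2 had 1.24 (1.07 to 1.45). Mettl15, another methyltransferase of that rRNA, had 0.683 (0.487 to 0.957), and Malsu1, an assembly factor of the large subunit, 0.855 (0.676 to 1.08).

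The 11 genes for transcription and upkeep of mitochondrial DNA had a median difference of 0.07. Of them 1 (9.09%) was higher by at least 0.32, against 24.3% of all genes. Slirp and the RNA polymerase gene Polrmt were lowest, at 0.990 (0.816 to 1.202) and 1.00 (0.887 to 1.13), and Mterf1a and the DNA polymerase gene Polg highest, at 1.37 (1.04 to 1.81) and 1.247 (1.13 to 1.38). The 10 mitochondrial chaperone and protease genes had a median of 0.09. Afg3l2, a subunit of the protease that matures the Mrpl32 protein, had 1.41 (1.29 to 1.55), while Mrpl32 stood at 18.1 FPKM in the OIR eyes against 18.03 FPKM in the control eyes. Lonp1 had 1.17 (1.08 to 1.26), and Hspe1 and Clpp were lowest at 0.827 (0.760 to 0.899) and 0.900 (0.811 to 1.00). The 9 nuclear regulators of mitochondrial genes had a median of 0.28, 0 of them lower and 3 higher by at least 0.32, where 24.3% of all genes were higher by as much, so that 3 of 9 lies near the share of all genes. Gabpb1, a partner of the ETS factor whose motif was searched, had 1.53 (1.34 to 1.76), and Myc 2.97 (1.89 to 4.81) from 96 reads for OIR and 25 for the control. Esrra and Ppargc1a were lowest, at 0.907 (0.808 to 1.02) and 0.991 (0.884 to 1.11).

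The 17 mitochondrial aminoacyl-tRNA synthetase genes had a median difference of 0.10. Of them 3 (17.6%) were higher by at least 0.32, against 24.3% of all genes. Lars2, the leucyl enzyme, had 8282 reads for OIR and 406 for the control, a read-share ratio of 15.8 (14.3 to 17.5). Fars2 and Ears2 were lowest, at 0.851 (0.708 to 1.02) and 0.888 (0.690 to 1.14). The ribosome's own RNAs, mt-Rnr1 and mt-Rnr2, had ratios of 15.1 (13.3 to 17.2) and 15.9 (14.5 to 17.4). All rRNA genes of GENCODE M21 together took 0.153% of reads for OIR and 0.00791% for the control, and the part of this in the values of Lars2, mt-Rnr1 and mt-Rnr2 was not tested.

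Genes of the respiratory chain and of the cytosolic ribosome also had medians below 0. The 81 nuclear respiratory chain genes, taken by symbol pattern, had a median difference of -0.37. Of them 77 (95.1%) lay below 0 and 46 (56.8%) were lower by at least 0.32. Of all genes 35.1% lay below 0 and 9.00% were lower by as much. Cox6b1 and Uqcr10 were lowest, at 0.668 (0.624 to 0.716) and 0.668 (0.616 to 0.724), and Cox4i2 and Atp5s highest, at 1.26 (1.09 to 1.47) and 1.15 (0.923 to 1.44). The 76 cytosolic ribosomal protein genes had a median of -0.295, with 74 (97.4%) below 0 and 27 (35.5%) lower by at least 0.32. Rpl36 and Rpl38 were lowest, at 0.715 (0.675 to 0.757) and 0.721 (0.685 to 0.759), and Rpl12 and Rplp2 highest, at 9.83 (8.78 to 11.05) and 1.01 (0.959 to 1.06). The 12 measured messengers of mitochondrial DNA, which the mitochondrial ribosome translates, had a median of -0.51. Among them mt-Nd3 and mt-Atp8 were lowest, at 0.578 (0.521 to 0.640) and 0.574 (0.430 to 0.765), and mt-Nd6 and mt-Nd5 highest, at 0.798 (0.771 to 0.827) and 0.773 (0.761 to 0.785). Some of these messengers had few assigned reads. For OIR and the control, mt-Atp8 had 87 and 117 and mt-Co3 30 and 36, where mt-Co1 had 111555 and 111696. Centred on genes of like length, the medians were -0.20 for the mitochondrial ribosomal protein genes, -0.26 for the cytosolic ones and -0.32 for the nuclear respiratory chain. The distances between these medians could not be tested with 1 library per group.

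**Figure D5:**
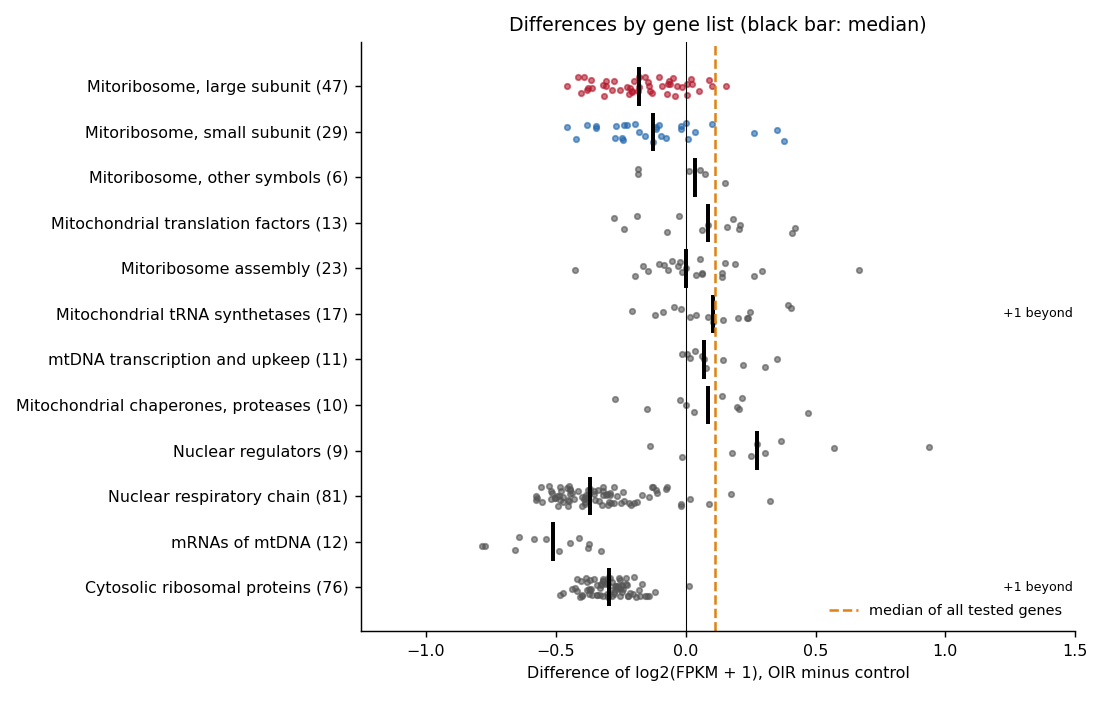
Difference of log2(FPKM + 1), OIR minus control, of each tested gene (points) by gene list, with the number of genes in brackets, black bars at the medians and a dashed line at the median of all tested genes, 0.11. The mitoribosomal subunits have medians of -0.18 and -0.13; Lars2 and Rpl12 lie beyond the axis.

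Read shares of several sets of tissue markers differed between the 2 libraries. Crystallin genes of the lens took 18.03% of reads for OIR and 23.8% for the control. Below 0 lay 10 of 10 measured lens markers, where 35.1% of all genes did. The 8 measured corneal epithelium markers all lay above 0 and took 0.192% of reads for OIR and 0.0576% for the control, and so did the 5 measured red cell markers, with 0.0955% of reads for OIR and 0.0344% for the control. Rod markers took 2.96% of reads for OIR and 2.91% for the control, and muscle markers 0.0194% of reads for OIR and 0.0145% for the control. With lens, muscle, red cell and mitochondrially encoded genes left out of a TPM scaling, the members' median difference was -0.23. The part of tissue content in the members' values was not tested.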

How the data were processed

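RNA of whole mouse eyeballs was sequenced in 1 OIR library and 1 control library. The submitters' processing notes name HTSeq 0.6.1, TopHat2 2.0.12, Bowtie2 2.2.3 and the build mm10; their settings, strand and annotation release were not given in the sources used here. Per the file headers, the authors deposited read counts, FPKM values, a scaled signal (counts divided by 1 factor per library, as the values show), gene lengths and coordinates. Columns that the authors deposited for OIR against control hold log2 fold changes and p-values. Of 47644 listed genes, 15883 reached 1 FPKM in at least 1 library; 5 broken-off lines of annotation text were dropped. Counts and FPKM implied the same transcript length in both libraries within 0.1% for all 22320 genes with reads in both.

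Differences of log2(FPKM + 1), OIR minus control, were computed with Python 3.11.15, numpy 2.4.6, pandas 2.3.3 and scipy 1.17.1, and the procedure was tested on simulated counts. With 1 library per group no test was made. Intervals of read-share ratios are exact conditional (Clopper-Pearson) 95% intervals and cover counting error only, since reads that lack molecular identifiers need not be independent molecules. Depth was 20378793 assigned reads for OIR and 15741235 for the control. Gene types, exons and missing symbols came from GENCODE M21 (GRCm38, the same assembly as mm10), and promoter windows from RefSeq (GRCm38.p6). The members and lists were chosen with earlier results of these data known. Members were named by rule: in each subunit the 4 lowest and 4 highest differences and the 3 most abundant, with the Mrps18 paralogs, Mrps36 and any member at 0, and 2 genes from each end of each list; members named for their role or neighbour were added after their values were seen. A gene that this rule names is not reported here. Protein sequences were not used here. Other pseudocounts, filters, scalings, member sets, length centring and sizes of call were tried.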

Additional observations from a re-analysis of the deposited data

How the results depend on the processing

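Over 16 alternatives the median difference of all members kept its sign, between -0.29 with the authors' scaling factors, which shift every log2 ratio by -0.14, and -0.07 under TPM. The large-subunit minus small-subunit median, -0.05 as reported, lay between -0.05 and -0.02; alternatives that scale all genes alike can hardly move it. The quotient of large-subunit over small-subunit reads, OIR over control, lay between 0.975 and 1.00 over 6 alternatives. Counts by size moved with scaling. The number of members lower by at least 0.32 on the log2 scale was 13 as reported, where 9.00% of all genes were lower by as much. It was 3 under TPM, against 6.56% of all genes. Under TPM without lens, muscle, red cell and mitochondrially encoded genes it was 23, against 13.5%. It was 29 when centred on the median of all genes, against 15.4%, and 31 with the authors' factors, against 15.9%. In length bins of protein-coding genes, an alternative chosen after seeing the data, it was 6. Without centring, 7.90% of protein-coding tested genes were lower by at least 0.32. At 1.1-fold it was 42 and at 1.5-fold 0. For the length bins and these other sizes of call no share of all genes is given, in either direction. Those counts are therefore not read as an excess or a lack. The number of members higher by at least 0.32 was 2 as reported, where 24.3% of all genes were higher by as much. It was 3 under TPM. It was 1 with an FPKM filter of 5, under TPM without those genes, and without members whose exons overlap another gene's (chosen after seeing the data). It was 0 when centred on the median, in length bins of either kind, with the authors' factors and without members whose span overlaps another gene. At 1.1-fold it was 4 and at 1.5-fold 0. The ratio of summed read shares, 0.886 as reported, was 0.948 under TPM, 0.845 under TPM without those genes, 0.804 with the authors' factors, 0.852 without span overlaps and 0.867 without exon overlaps. The cause of these shifts was not tested. No paired analysis was possible because each group is 1 library, and no library could be left out. Depth limits single members, whose typical counting interval spans a factor of 1.15 either way.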
